A study of Mus musculus with 8 samples.

Results

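The cerebral cortex of young adult SAMP8 mice was compared with that of SAMR1 mice of the same age, 16 weeks. SAMP8 is a senescence-prone mouse strain that loses learning and memory early in life, and SAMR1 is the senescence-resistant strain used as its control. Both strains come from the same breeding programme and differ at many places in the genome, so the comparison is between strains and not of a single allele, a drug or a transgene. All animals were male, and none carried a treatment according to the labels. The study treats this contrast as the early events of accelerated aging. RNA was hybridised to MG-430 PM array strips, which carry short probes that match mouse transcripts, and each group held 2 arrays. The comparison took in all 45037 of the 45037 probe sets that are not hybridisation controls, on 4 of the 8 arrays of the series. The other 4 arrays hold the same strains at 1 year, and their values are given beside those of 16 weeks. Titles set the groups here, since SAMR8 is what the genotype field gives for the SAMP8 samples.

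A probe set is a group of probes whose signals are summarised as a single value on a log2 scale, on which a difference of 1 is a factor of 2. Differences below are SAMP8 minus SAMR1, with the standard error (SE) of a limma fit and a Benjamini-Hochberg adjusted p over all probe sets. A probe set or gene is said to be called when its adjusted p is under 0.05. The labels do not say which animal each array came from, so the p-values measure the spread between arrays. The cortex was hybridised as a whole, and fewer cells of a type cannot be told apart from less RNA per cell.

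The cortex holds excitatory and inhibitory neurons among astrocytes, oligodendrocytes that wrap axons in myelin, microglia and vessels. Cells meet damaged or misfolded proteins with chaperones, in the cytosol through the heat shock factors and in the endoplasmic reticulum through the unfolded protein response. Neurons also switch on a set of immediate early genes within minutes of firing, so these transcripts record recent activity in the tissue.

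The 4 arrays of 16 weeks correlated with each other at 0.992 to 0.996 over all probe sets. Of the genes that define cortical neurons, *Rorb*, a factor of the input layer, read 5.84 to 6.28 on these arrays. Markers of regions next to the cortex differed between the arrays. The SAMR1 replicate 1 array stood apart: the median level of 17 markers of the striatum was 6.75 on it, against 8.25 on SAMR1 replicate 2 and 8.07 and 8.04 on the SAMP8 arrays. Over 14 thalamus markers it had the highest median, 6.59, against 6.05 on SAMR1 replicate 2 and 5.57 and 5.72 in SAMP8. Over 18 hypothalamus markers the medians were 4.06 and 4.24 in SAMR1 and 3.99 and 3.91 in SAMP8. SAMP8 replicate 1 had a median of 4.75 over 15 olfactory bulb markers, against 3.83 on SAMP8 replicate 2 and 4.19 and 3.91 in SAMR1. No gene was called among 17 choroid plexus, 15 hippocampus or 9 blood cell genes, with median differences of -0.17, -0.11 and -0.02. These medians were 0.04, -0.12 and 0.02 without SAMR1 replicate 1, and -0.44, -0.18 and -0.08 without SAMR1 replicate 2. The median difference of the striatum markers was 0.40. It was -0.08 without SAMR1 replicate 1 and 0.85 without SAMR1 replicate 2. For the thalamus markers the median was -0.29, and -0.18 and -0.43 without these arrays in the same order. Counts of calls are given below without each array as well.

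At 16 weeks 554 probe sets were called, 1.23% of all tested, with 319 (0.708%) higher and 235 (0.522%) lower in SAMP8. The median size of a called difference was 0.57 on the log2 scale. Differences above 4-fold were found for 16 probe sets higher and 5 lower, and differences above 2-fold for 51 and 41. The SD between the 2 arrays of a group had a median of 0.06 in either strain. All 554 called probe sets had arrays that did not overlap between the strains, as did 16897 probe sets in all (37.5%), so an absence of overlap alone was common. Counted by gene, 378 of 19761 genes with a single symbol had a called probe set (1.91%), 230 of them higher (1.16%), 151 lower (0.764%) and 3 in both directions. Without SAMR1 replicate 1 of 16 weeks 353 probe sets were called, and 262 of these were among the 554. Without SAMR1 replicate 2 the count was 1128, without SAMP8 replicate 1 it was 195 and without SAMP8 replicate 2 it was 172. The arrays of 1 year enter through the shared estimate of the spread, and the count was 303 without either SAMR1 array of that age and 332 without either SAMP8 array.

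The 15 genes with the largest increases in SAMP8 had differences of 1.34 to 4.30 and had varied roles. *Abcb1a*, the P-glycoprotein pump that returns drugs and metabolites from brain endothelium to the blood, read 5.23 and 5.59 on the SAMP8 arrays and 3.29 and 3.27 on the SAMR1 arrays. This was a difference of 2.13 ± 0.11 (SE; 4.38-fold, adjusted p = 6.37e-05, limma), and the second probe set of the gene was also higher, by 0.97 ± 0.14 (lost without SAMP8 replicate 1, adjusted p = 0.0714, or 2, 0.12). The other genes of the endothelium list did not move with it: of 16 measured, *Abcb1a* was the single gene called and the list's median difference was -0.03. *Ggps1*, which makes the geranylgeranyl lipid that anchors small GTPases to membranes, read 6.60 and 6.47 against 5.02 and 5.28 (difference 1.39 ± 0.10, adjusted p = 0.000534). Its brightest probe set was 0.66 ± 0.07 higher (adjusted p = 0.00342). The remaining probe sets stood at -0.15 ± 0.08 and -0.42 ± 0.08 (adjusted p = 0.428 and 0.0517). *Adat2*, a subunit of the enzyme that edits adenosine in transfer RNA, read 5.45 and 5.59 against 3.95 and 4.03, a difference of 1.53 ± 0.08 (adjusted p = 6.1e-05). On the probe set whose signals are given, the lowest SAMP8 array of each gene lay more than 1 log2 unit above the highest SAMR1 array.

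Further genes among the 15 were *Vps52*, *Vps41*, *Dctn3*, *Rapgef5* and *Nrip1*. *Vps52*, part of the complex that returns vesicles to the Golgi apparatus, read 5.63 and 6.05 in SAMP8 against 4.29 and 4.40 in SAMR1 (difference 1.50 ± 0.12, adjusted p = 0.001). *Vps41*, part of the complex that tethers vesicles to lysosomes, was 2.67 ± 0.11 higher on 1 of 3 probe sets (adjusted p = 2.74e-05). Another was 0.56 ± 0.09 higher (adjusted p = 0.0318), and the brightest stood at 0.07 ± 0.07 (adjusted p = 0.71). *Dctn3*, a dynactin subunit that links cargo to the dynein motor, was 1.48 ± 0.11 higher (adjusted p = 0.000795). *Rapgef5*, an exchange factor for Rap GTPases, read 7.60 and 7.49 against 6.37 and 5.62. Its SAMR1 arrays lay far apart, and its call at 1.55 ± 0.20 (adjusted p = 0.00922) was lost without SAMP8 replicate 1 (adjusted p = 0.0832) or SAMP8 replicate 2 (0.075). *Nrip1*, a corepressor of nuclear receptors, read 7.40 and 7.37 against 6.01 and 5.41, a difference of 1.68 ± 0.16 (adjusted p = 0.00215). The remaining members of the 15 largest increases were *Mela*, *Soga3*, *Galc*, *Prss22*, *Pigo*, *Fam205a1* and *Gm41227*, between 1.34 and 4.30. *Mela*, the largest of these, was not called without SAMP8 replicate 2 (difference 3.69, adjusted p = 0.102).

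**Figure D1:**
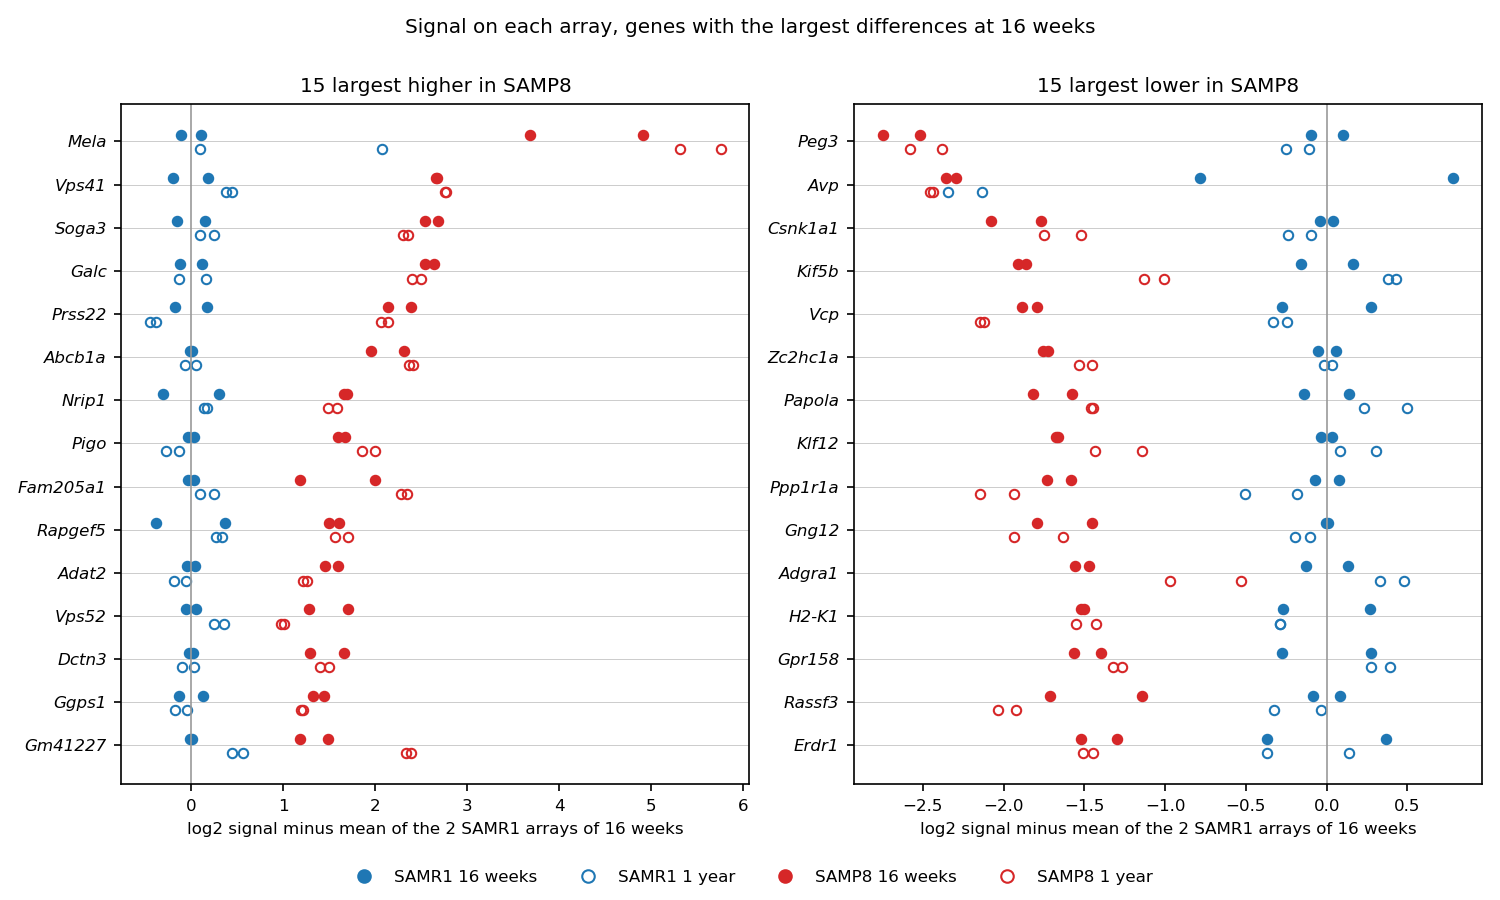
Signal on each of the 8 arrays for the 15 genes with the largest increases and the 15 with the largest decreases in SAMP8 at 16 weeks, as log2 signal minus the mean of the 2 SAMR1 arrays of 16 weeks. Filled points are 16 weeks and open points 1 year; the strains lie apart at both ages for nearly all genes, while the SAMR1 points of *Avp* at 1 year lie with SAMP8.

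The 15 largest decreases in SAMP8 ran from -2.64 to -1.41. *Csnk1a1*, the alpha isoform of casein kinase 1, read 6.71 and 6.40 in SAMP8 and 8.44 and 8.52 in SAMR1, a difference of -1.93 ± 0.12 (adjusted p = 0.000214). *Zc2hc1a*, a zinc finger gene, read 6.48 and 6.51 against 8.18 and 8.29 and had the smallest error of the group (-1.74 ± 0.07, adjusted p = 2.74e-05). *Klf12*, a transcription factor, read 6.30 and 6.29 against 8.0 and 7.93 (-1.67 ± 0.11, adjusted p = 0.000301). For each of these genes the arrays of a strain lay close together and the strains far apart.

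*Gng12*, a gamma subunit of G proteins, read 6.0 and 5.66 against 7.45 and 7.46 (-1.63 ± 0.13, adjusted p = 0.000795). *Adgra1*, an adhesion receptor, read 5.24 and 5.15 against 6.84 and 6.58 (-1.52 ± 0.14, adjusted p = 0.00214). *Gpr158*, a receptor of cortical neurons, read 3.41 and 3.24 against 4.53 and 5.08, and its call (-1.48 ± 0.15, adjusted p = 0.00369) was lost without SAMP8 replicate 2 (adjusted p = 0.0524). *Rassf3*, of the Ras association domain family, read 4.64 and 5.21 against 6.44 and 6.27 (-1.43 ± 0.17, adjusted p = 0.00716). *Erdr1* read 8.75 and 8.53 against 9.68 and 10.42. Its call (-1.41 ± 0.23, adjusted p = 0.0295) was lost without any single array of SAMP8, at 16 weeks or at 1 year (adjusted p 0.0636 to 0.18). *Peg3*, *Kif5b*, *Vcp*, *Papola*, *Ppp1r1a* and *H2-K1* made up the rest of the 15 with *Avp*, at -2.64 to -1.51. *Avp*, the vasopressin gene of hypothalamic neurons, read 3.39 and 3.45 against 4.96 and 6.53, and its call was lost without 6 of the 8 arrays (largest adjusted p = 0.166, without SAMP8 replicate 2).

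Probe sets without a gene symbol held the 2 largest increases of all. The probe set 1457324_PM_at read 9.16 and 8.59 in SAMP8 and 3.96 and 4.04 in SAMR1, a difference of 4.88 ± 0.16 (29.3-fold, adjusted p = 1.58e-05). For 1435579_PM_at the signals were 8.95 and 8.12 against 3.77 and 3.83 (4.74 ± 0.22, adjusted p = 3.59e-05). In the other direction 1458091_PM_at read 2.58 and 2.44 against 4.98 and 5.16 (-2.56 ± 0.09, adjusted p = 1.58e-05). Among probe sets that match several genes, 3 that list a family of predicted genes beginning with *Gm13301*, *4933409K07Rik* and *Gm21093* were 3.61 to 3.82 higher, and the chemokine probe set that lists *Ccl19* was 3.51 ± 0.16 higher (8.18 and 7.98 against 4.86 and 4.29). Signals of such a family cannot be assigned to a single member. Of the 554 called probe sets, 91 had no symbol, 29 listed several and 1 had a symbol stored as a date.

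Most called genes with several probe sets were called on just 1 of them. Of the 378 called genes, 280 had more than 1 probe set on the array. Every probe set was called for 14 of these genes, and just 1 of several was called for 230. The brightest probe set of the gene was called for 113 of these 280 genes. Of the 30 largest differences named above, 22 were in genes with several probe sets, and for 12 of them the brightest probe set lay within 0.2 of 0. *Kif5b*, the heavy chain of a kinesin motor, illustrates this with 5 probe sets: 1418429_PM_at fell by 1.89 (SE 0.10) in SAMP8, while the other 4 differed by -0.19 to 0.07. *Peg3*, a paternally expressed zinc finger gene, had 1 probe set at -2.64 ± 0.11 and 4 between -0.08 and 0.15. *Nrip1* had 1 at 1.68 ± 0.16 and 5 between -0.06 and 0.08. In *Klf12* 2 of 5 probe sets were called, at -1.67 and -1.83, and the brightest was at 0.24 ± 0.07 (adjusted p = 0.208). *Csnk1a1* likewise had 2 of 5 called, at -1.93 and -1.21, and its brightest was at 0.30 ± 0.07 (adjusted p = 0.101). *Galc*, the lysosomal enzyme that breaks down galactolipids of myelin, was called in both directions: 1 probe set was 2.60 ± 0.11 higher, another was 0.39 ± 0.07 lower (adjusted p = 0.0353) and the remaining probe set stood at 0.08. The sequence of these strains under the probes was not analysed here.

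Called genes also lay near each other on the chromosomes. Among 18409 genes placed on the reference gene table, 366 were called, and 93 of these (25.4%) had another called gene among the 3 nearest measured genes on either side. Of the genes not called, 10.1% had one. By size of the difference the share was 22.0% under 0.5, 22.8% from 0.5 to 1, 50.0% (19 of 38) from 1 to 2 and 28.6% (2 of 7) for 2 or more, so it did not grow steadily with size. It was 35.2% (45 of 128) for genes that were called the same way at 1 year and 20.2% (48 of 238) for the rest. Chromosomes 18 and 13 had the highest shares of called genes, 4.73% (22 of 465) and 3.78% (27 of 715), and chromosome 16 and the X chromosome the lowest of those with a called gene, 0.668% and 0.784%.

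**Figure D2:**
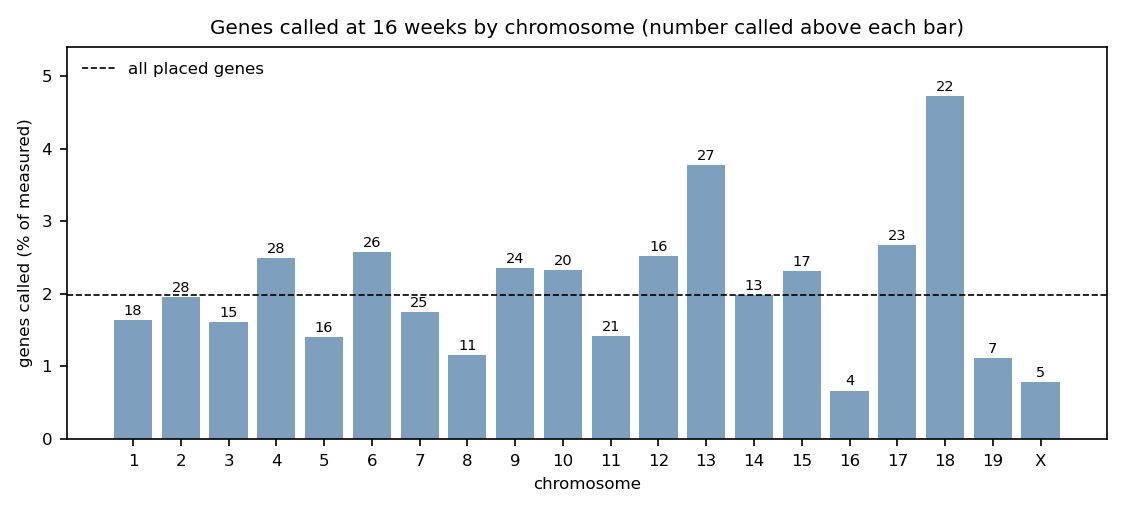
Share of measured genes called at 16 weeks on each chromosome, in percent, with the number called above each bar and the share over all placed genes as a dashed line. Chromosomes 18 (4.73%) and 13 (3.78%) stand highest and chromosome 16 (0.668%) lowest.

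There were 14 runs of 3 or more called genes, with 55 genes in all. The longest lay on chromosome 4, where 7 of 10 neighbouring genes were called. Among them *Rpp25l* (0.91 ± 0.15), *Dctn3* (1.48 ± 0.11), *Fam205a1* (1.59 ± 0.21), the co-chaperone gene *Dnajb5* (0.98 ± 0.13) and *Pigo*, an enzyme of GPI anchor synthesis (1.64 ± 0.08), were higher, and *Vcp*, an ATPase that extracts ubiquitinated proteins, was lower (-1.84 ± 0.15) on 1 of 2 probe sets. The other probe set of *Vcp*, which is far brighter (mean signal 9.52 against 4.22), stood at -0.03 (adjusted p = 0.903). All of these but *Dnajb5* were called in the same direction at 1 year. A run on chromosome 13 held 6 called genes of 14, from *Gpr137b-ps* (0.91 ± 0.07) and *Gpr137b* (0.39 ± 0.07) to *Gli3* (0.41 ± 0.07), with *Ggps1* and the ubiquitin ligase gene *Hecw1* (0.55 ± 0.08) among them and *Lyst*, a regulator of lysosome size, lower (-0.64 ± 0.09). On chromosome 9, *Snap91*, a clathrin adaptor of synaptic vesicle recycling, was 1.05 ± 0.11 higher between *Me1* (0.37 ± 0.07) and *Mrap2* (0.47 ± 0.08). On chromosome 6, *Mbd4*, a DNA repair glycosylase, was 0.80 ± 0.07 higher and *Etnk1*, an ethanolamine kinase, 0.87 ± 0.07 higher, each in a run of its own. On chromosome 17, in the region of the major histocompatibility complex, 4 of 7 neighbouring genes were called. The complement gene *C2* (-0.43 ± 0.07) and *1110038B12Rik* (-1.04 ± 0.08) were lower, while *Neu1*, the lysosomal sialidase (0.62 ± 0.08), and the chaperone gene *Hspa1b* (1.30 ± 0.15) were higher. *Zfp551* (-1.18 ± 0.10) and *Zfp606* (-0.85 ± 0.10) on chromosome 7 were lower beside *Vmn2r29*, which was 0.78 ± 0.12 higher. Neighbours thus moved in both directions.

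The strain differences of 16 weeks were set beside those of 1 year, which come from other arrays. Both ages share the estimate of the spread of each probe set, so their calls are not independent of each other. Of the 554 probe sets called at 16 weeks, 489 (88.3%) had the same sign at 1 year and 212 (38.3%) were called in the same direction. The second count was 89 and 90 without a SAMR1 array of 1 year, 99 and 110 without a SAMP8 array of 1 year, and 130 and 121 without SAMP8 replicates 1 and 2 of 16 weeks. Among probe sets not called at 16 weeks 56.2% kept their sign. At 1 year 310 probe sets were called in all (0.688%). The share that was called again grew with the size of the difference at 16 weeks: 13.9% (28 of 202) for differences under 0.5, 42.7% (111 of 260) for 0.5 to 1, 74.6% (53 of 71) for 1 to 2 and 95.2% (20 of 21) for 2 or more. The median ratio of the 1 year to the 16 weeks difference was 0.37, 0.65, 0.89 and 1.05 in these bands. The probe sets were picked for their difference at 16 weeks, which by itself favours a smaller value in other arrays. Of the 30 largest genes 28 were called in the same direction at 1 year, the exceptions being *Avp* (-0.21 at 1 year) and *Vps52* (0.69 ± 0.12, adjusted p = 0.0548).

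The change of the strain difference between the ages was also tested directly. A single probe set passed (0.00222% of those tested): 1428834_PM_at, which has no symbol. It read 5.21 and 5.12 in SAMP8 and 4.68 on either SAMR1 array at 16 weeks, and 4.46 and 4.54 against 5.21 and 5.15 at 1 year. Its strain difference went from 0.49 to -0.68, a change of -1.17 (adjusted p = 0.04, limma), and its 16 weeks call was lost without SAMP8 replicate 1 (adjusted p = 0.0794) or SAMP8 replicate 2 (0.0515). Without SAMR1 replicate 2 of 16 weeks 52 probe sets passed this test and without SAMP8 replicate 1 of 1 year 8, and none passed without either SAMR1 array of 1 year, SAMP8 replicate 2 of 1 year or SAMP8 replicate 1 of 16 weeks. At an unadjusted p under 0.05 the test found 3116 probe sets in all and 257 of the 554. Besides this probe set, *Xbp1*, *Hspa5* and *Serpinb8* were called in opposite directions at the 2 ages.

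**Figure D3:**
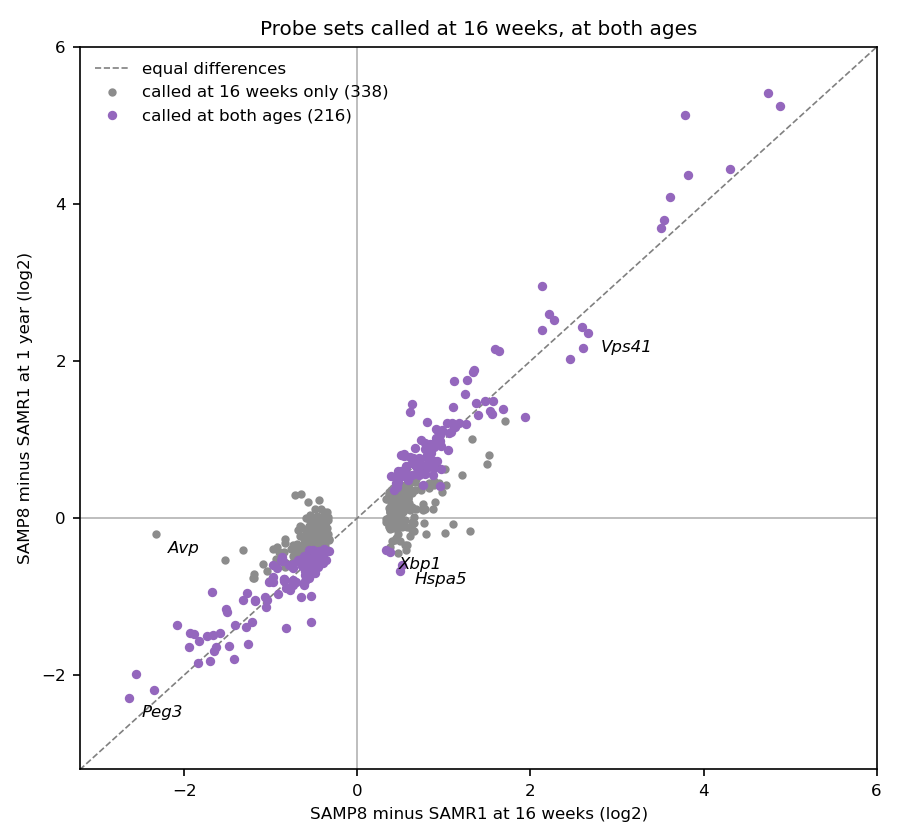
SAMP8 minus SAMR1 differences (log2) of the 554 probe sets called at 16 weeks, on the horizontal axis, against those of 1 year, on the vertical axis; purple points were called at both ages and grey points at 16 weeks only. All 21 differences of 2 or more kept their sign at 1 year, with *Avp* (-0.21) near 0, and 160 of the 202 under 0.5 did; *Hspa5* and *Xbp1*, higher at 16 weeks, lie below 0 at 1 year.

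Heat shock chaperones were higher in SAMP8 at 16 weeks. Of 30 measured genes 8 were called higher and none lower, against 1.16% of all genes called higher, and 25 lay above 0. The median of the list over the brightest probe set of each gene was 0.12, where that of all genes was 0.00 and 49.9% of genes lay above 0. *Hspa1b*, an inducible Hsp70 chaperone, read 5.54 and 5.85 in SAMP8 and 4.54 and 4.26 in SAMR1, a difference of 1.30 ± 0.15 (2.45-fold, adjusted p = 0.00618). The gene lies in the run of called genes on chromosome 17. Its other 2 probe sets were called too, at 1.10 ± 0.13 and 1.01 ± 0.17, and a near-identical gene, *Hspa1a*, can share their signal. *Hspb1*, a small heat shock protein that holds unfolded clients, read 6.02 and 6.31 against 5.45 and 5.64 (0.62 ± 0.10, adjusted p = 0.0305). *Dnajb1*, a co-chaperone of Hsp70, read 8.42 and 8.44 against 7.96 and 7.95 (0.48 ± 0.08, adjusted p = 0.0288). *Hsph1*, a nucleotide exchange factor of Hsp70, read 9.06 on either SAMP8 array against 8.49 and 8.68 (0.48 ± 0.09, adjusted p = 0.0468). *Dnaja1*, *Dnajb4* and *Dnajb5*, further co-chaperones, and *Hsp90ab1*, the constitutive cytosolic Hsp90, were higher by 0.36 to 0.98 on the probe set with the smallest p. On the brightest probe set the differences were 0.07 for *Dnaja1*, 0.22 for *Dnajb4*, 0.26 for *Hsph1*, 0.42 for *Dnajb5* and 0.33 for *Hsp90ab1*. *Dnajb5* lies in the run of called genes on chromosome 4.

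None of the 8 genes was called at 1 year, where the list's median was -0.01 and all 8 differences were smaller than at 16 weeks or reversed. *Hspa1b* then read 4.83 and 5.16 in SAMP8 against 5.27 and 5.06 in SAMR1. The change between the ages had an unadjusted p under 0.05 in 7 of the 8, but adjusted p ran from 0.179 to 0.954, so no change was called. Without SAMR1 replicate 1, the array with little striatal signal, 2 genes of the list were called and the median was 0.11. The median was 0.11 without SAMR1 replicate 2, 0.16 without SAMP8 replicate 1 and 0.12 without SAMP8 replicate 2. With each array of 1 year left out in turn it was 0.12. Fewer of the 8 genes were called in each of these fits. *Hspa1b* was lost only without SAMP8 replicate 2, at 1.14 and adjusted p = 0.0622, *Dnajb5* without SAMP8 replicate 1 (0.0897) or 2 (0.0515), and the other 6 genes without 6 to 8 of the arrays (largest adjusted p = 0.188, *Hsph1* without SAMP8 replicate 2).

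The promoters of the chaperone genes were searched for the heat shock element, the site of heat shock factors, written GAANNTTCNNGAA or its reverse complement TTCNNGAANNTTC. Promoters were the RefSeq windows from 250 bases before to 50 after the transcription start (GRCm38.p6), of the reference mouse genome and not of these strains. Of 30 measured chaperone genes 23 had a window and 4 of these held the element (17.4%), against 0.662% of 27025 genes in the table. Only *Hsph1* among them was called. Its element begins 36 bases after the transcription start, within chr5:149636287-149636316 on the minus strand, and is shown in capitals because it is the single match among the called chaperone genes.
Hsph1: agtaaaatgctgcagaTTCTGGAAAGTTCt

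Genes of the unfolded protein response moved in the same way. Of 30 measured, 5 were called higher, against 1.16% of all genes, and none lower, and 26 lay above 0, against 49.9% of all genes. The median was 0.16. *Pdia6*, a disulfide isomerase of the endoplasmic reticulum, read 6.83 and 6.85 in SAMP8 and 6.27 and 6.37 in SAMR1 (0.52 ± 0.06, adjusted p = 0.00802). *Manf*, a factor secreted on endoplasmic reticulum stress, read 7.66 and 7.52 against 7.10 on either SAMR1 array (0.49 ± 0.07, adjusted p = 0.0178). *Xbp1*, the transcription factor spliced by the sensor Ire1, read 8.41 and 8.42 against 8.07 and 8.10 (0.33 ± 0.06, adjusted p = 0.0429). *Hspa5*, the chaperone BiP that holds the stress sensors inactive, read 8.61 and 8.76 against 8.10 and 8.23 (0.52 ± 0.10, adjusted p = 0.0494). *Sel1l*, of the machinery that exports misfolded proteins for degradation, was 0.45 ± 0.08 higher (adjusted p = 0.042). The brightest probe set of *Sel1l* stood at 0.16. The 5 called differences were 1.26 to 1.43-fold.

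At 1 year the median of the list was -0.07 and 3 of the 30 genes were called lower. Over all probe sets 0.688% were called at that age in either direction. *Hspa5* read 8.29 and 8.03 in SAMP8 against 8.78 and 8.73 in SAMR1 (-0.60, adjusted p = 0.0385), and *Xbp1* read 8.07 and 8.14 against 8.52 and 8.51 (-0.41, adjusted p = 0.0224). For *Hspa5* both SAMR1 arrays of 1 year thus lay above those of 16 weeks, and both SAMP8 arrays below. *Manf* read 7.18 on either SAMP8 array against 7.42 and 7.53 (-0.30, adjusted p = 0.19). The change between the ages was -1.12 for *Hspa5*, -0.74 for *Xbp1* and -0.79 for *Manf*, with an adjusted p of 0.145 for each. Calls at 16 weeks numbered 1 without SAMR1 replicate 1, 5 without SAMR1 replicate 2, 0 without SAMP8 replicate 1, 1 without SAMP8 replicate 2, 2 without either SAMR1 array of 1 year and 3 without either SAMP8 array of 1 year, and the list's median stayed between 0.14 and 0.17. *Pdia6* was lost without SAMP8 replicate 1 (adjusted p = 0.0525) or 2 (0.0623), *Manf* without SAMR1 replicate 1 (0.0622) or SAMP8 replicate 1 (0.0884), and *Hspa5*, *Xbp1* and *Sel1l* without 5 to 8 of the arrays (largest adjusted p = 0.229, *Hspa5* without SAMP8 replicate 2).

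The endoplasmic reticulum stress element, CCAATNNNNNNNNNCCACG on either strand, is bound by the transcription factors of this response. It stood in 9 of the 27 promoter windows of the list (33.3%) and in 0.137% of all genes in the table. *Hspa5* and *Pdia6* were the called genes that held it, of 4 called genes with a window. The bases before the start site are shown for these 2 genes, plus strand, with the element in capitals: chr2:34771840-34772089 for *Hspa5*, where it begins 65 bases before the start, and chr12:17266339-17266588 for *Pdia6*, where it begins 98 bases before the start.
Hspa5: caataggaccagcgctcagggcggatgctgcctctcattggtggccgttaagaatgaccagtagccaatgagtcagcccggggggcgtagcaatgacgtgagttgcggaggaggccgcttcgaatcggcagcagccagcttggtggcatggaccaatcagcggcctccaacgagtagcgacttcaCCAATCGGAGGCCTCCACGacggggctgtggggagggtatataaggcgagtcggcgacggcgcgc
Pdia6: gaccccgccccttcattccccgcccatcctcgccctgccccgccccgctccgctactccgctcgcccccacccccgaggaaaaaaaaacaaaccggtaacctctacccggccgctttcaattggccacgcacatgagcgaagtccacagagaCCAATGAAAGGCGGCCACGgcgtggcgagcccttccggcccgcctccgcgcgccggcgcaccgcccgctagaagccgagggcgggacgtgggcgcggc
Of the 9 genes with the element 7 were not called: *Hsp90b1*, *Calr*, *Canx*, *Dnajc3*, *Creld2*, *Syvn1* and *Derl3*.

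**Figure D4:**
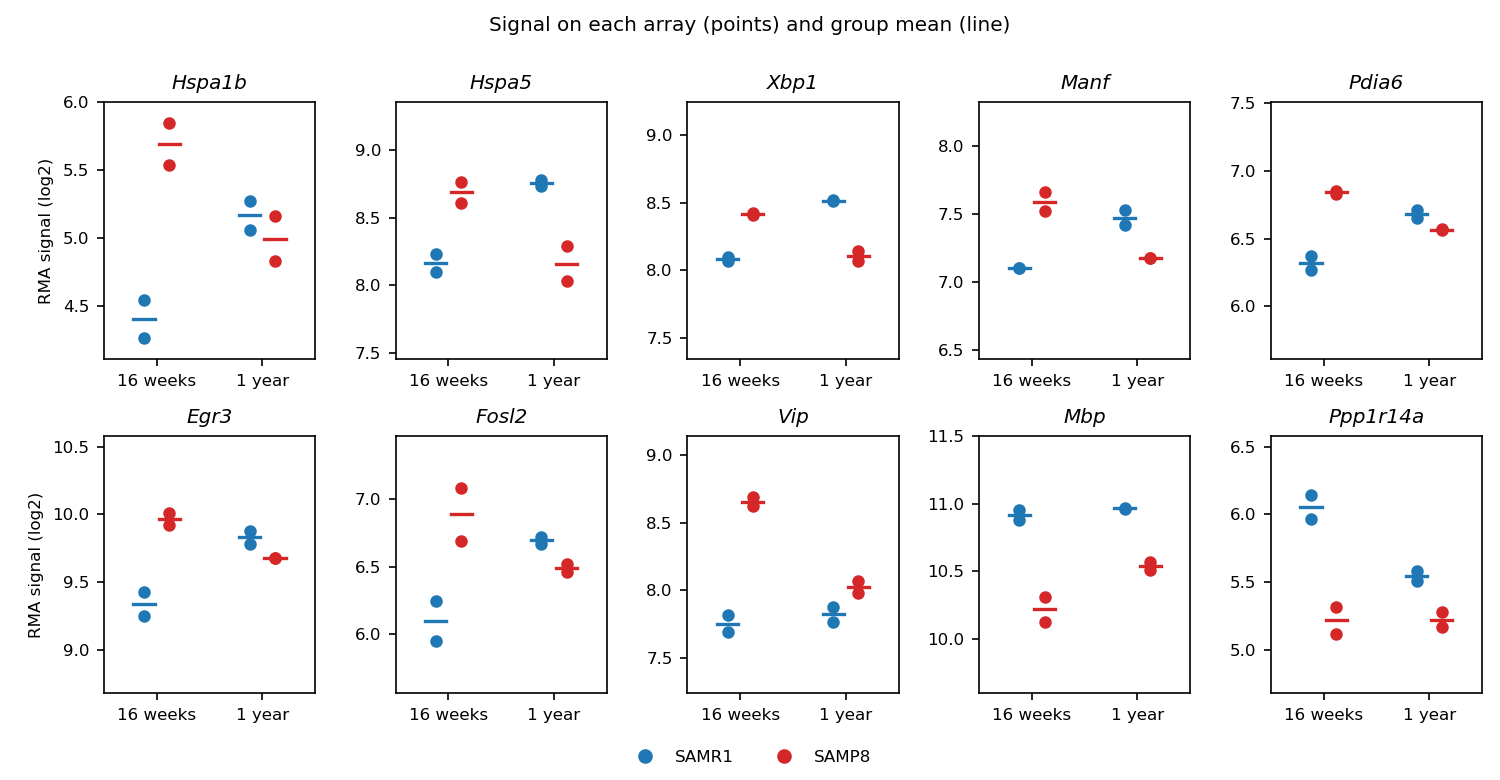
Signal (log2) on each array, as points, with the group mean as a line, for 10 genes called at 16 weeks; each panel spans the same range of signal. For *Hspa5*, *Xbp1* and *Manf* SAMP8 lies above SAMR1 at 16 weeks and below it at 1 year, while *Mbp* lies lower in SAMP8 at both ages, though it was not called at 1 year.

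Of 39 immediate early genes 5 were called higher, against 1.16% of all genes, and none lower. In the list 27 lay above 0, against 49.9% of all genes, and the median was 0.19. *Egr3*, a zinc finger factor induced by synaptic activity, read 9.92 and 10.01 in SAMP8 against 9.25 and 9.43 (0.63 ± 0.08, adjusted p = 0.00922). *Fosl2*, of the AP-1 family, read 7.08 and 6.69 against 5.95 and 6.25 (0.79 ± 0.13, adjusted p = 0.0333). *Ptgs2*, the inducible cyclooxygenase, read 3.96 and 4.14 against 3.59 and 3.57 (0.47 ± 0.07, adjusted p = 0.0253). *Homer1*, a postsynaptic scaffold with a short inducible form, was 0.45 ± 0.08 higher and *Dusp6*, a phosphatase that ends ERK signalling, 0.47 ± 0.09 higher. None of the 5 was called at 1 year, and 4 of them then had the opposite sign. At 1 year 6 other genes of the list were called higher, where 0.688% of all probe sets were called in either direction. The list then had 26 genes above 0 and a median of 0.07. On their brightest probe sets *Npas4* stood at 1.46 and *Fos* at 1.24 at 1 year, against -0.06 and 0.12 at 16 weeks. Calls at 16 weeks numbered 3 without SAMR1 replicate 1 (median 0.10), 14 without SAMR1 replicate 2 (median 0.33), 2 and 1 without SAMP8 replicates 1 and 2, and 1 to 2 without an array of 1 year. *Egr3* was lost only without SAMP8 replicate 2 (0.58, adjusted p = 0.0782), and the other 4 genes without 6 or 7 of the arrays (largest adjusted p = 0.20, *Dusp6* without SAMP8 replicate 2). The striatum markers, whose neurons also express several of these genes, differed between the SAMR1 arrays in the same direction as this median, and their part in the counts was not tested. The cAMP response element, TGACGTCA, stood in 3 of the 30 promoter windows of this list and in 2.03% of all genes in the table, and in none of the 4 called genes with a window.

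The lists for hypoxia and oxidative stress gave fewer calls. In the hypoxia list 2 of 20 genes were called, both higher, against 1.16% of all genes called higher and 0.764% lower. In it 16 genes lay above 0 and the median was 0.11 (0.07 without SAMR1 replicate 1). *P4ha1* is a collagen prolyl hydroxylase (4.42 and 4.41 against 3.76 and 3.78, 0.65 ± 0.09, adjusted p = 0.0114). *Ero1l* is the oxidase that drives disulfide formation in the endoplasmic reticulum (5.29 and 5.27 against 4.87 and 4.91, 0.39 ± 0.07, adjusted p = 0.0312). The brightest probe set of *Ero1l* stood at 0.04. *P4ha1* was lost without SAMP8 replicate 1 (adjusted p = 0.0796) or replicate 2 (0.0832), and *Ero1l* without 7 of the 8 arrays (largest adjusted p = 0.125, without SAMP8 replicate 2). Of 26 antioxidant genes 1 was called: *Gstm1*, a glutathione transferase, was lower at 5.69 and 5.63 against 6.05 and 6.09 (-0.41 ± 0.06, adjusted p = 0.0201), and its call was lost without 7 of the arrays (largest adjusted p = 0.111, without SAMP8 replicate 2). No gene was called among 20 targets of glucocorticoids (median 0.11) or 21 genes of the circadian clock (median 0.05).

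Myelin genes were lower in SAMP8 at 16 weeks. Of 22 genes of oligodendrocytes and myelin 6 were called lower and none higher, against 0.764% of all genes called lower, 17 did not lie above 0 and the median was -0.23. *Mbp*, myelin basic protein, read 10.13 and 10.31 in SAMP8 and 10.95 and 10.88 in SAMR1 (-0.70 ± 0.08, 1.62-fold, adjusted p = 0.00457). All 8 of its probe sets lay below 0, at -0.70 to -0.17, and 2 were called. *Ppp1r14a*, an inhibitor of myosin phosphatase that oligodendrocytes express, read 5.32 and 5.12 against 6.14 and 5.97 (-0.84 ± 0.09, adjusted p = 0.00468). *Aspa*, which releases acetate from N-acetylaspartate, read 6.06 and 6.18 against 6.88 and 6.73 (-0.69 ± 0.11, adjusted p = 0.0312). *Mog*, a protein of the outer myelin surface, read 5.39 and 5.71 against 6.19 and 6.16 (-0.63 ± 0.11, adjusted p = 0.0328). *Cnp*, a phosphodiesterase of myelin, and *Plekhb1* were lower by 0.38 and 0.37 on the log2 scale.

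*Mbp* and *Ppp1r14a* were called without each of the 8 arrays in turn, while *Aspa*, *Mog*, *Plekhb1* and *Cnp* were lost without 5 to 8 of them (largest adjusted p = 0.135, *Aspa* without SAMP8 replicate 1). The list had 2 calls without SAMR1 replicate 1 (median -0.20), 6 without SAMR1 replicate 2, 2 and 3 without SAMP8 replicates 1 and 2, and 2 to 3 without an array of 1 year. At 1 year the median was -0.11, the difference of *Mbp* was -0.43 (adjusted p = 0.0538) and none of the 6 was called. Genes of oligodendrocyte precursors had a median of 0.01 with none of 11 called. Markers of the thalamus, a region rich in myelinated fibres, were also lower in SAMP8, with a median of -0.29 over 14 genes (-0.18 without SAMR1 replicate 1) and 2 called: *Prkcd*, a protein kinase C of thalamic relay neurons (5.58 and 5.56 against 6.38 and 6.21, -0.73 ± 0.10, adjusted p = 0.0111), and *Plekhg1* (-0.78 ± 0.15, adjusted p = 0.0486). *Prkcd* was lost without SAMP8 replicate 1 (adjusted p = 0.0773) or 2 (0.0888), and *Plekhg1* without 6 of the arrays (largest adjusted p = 0.179). Over all genes 0.764% were called lower. The part of the thalamus markers in the myelin values was not tested.

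**Figure D5:**
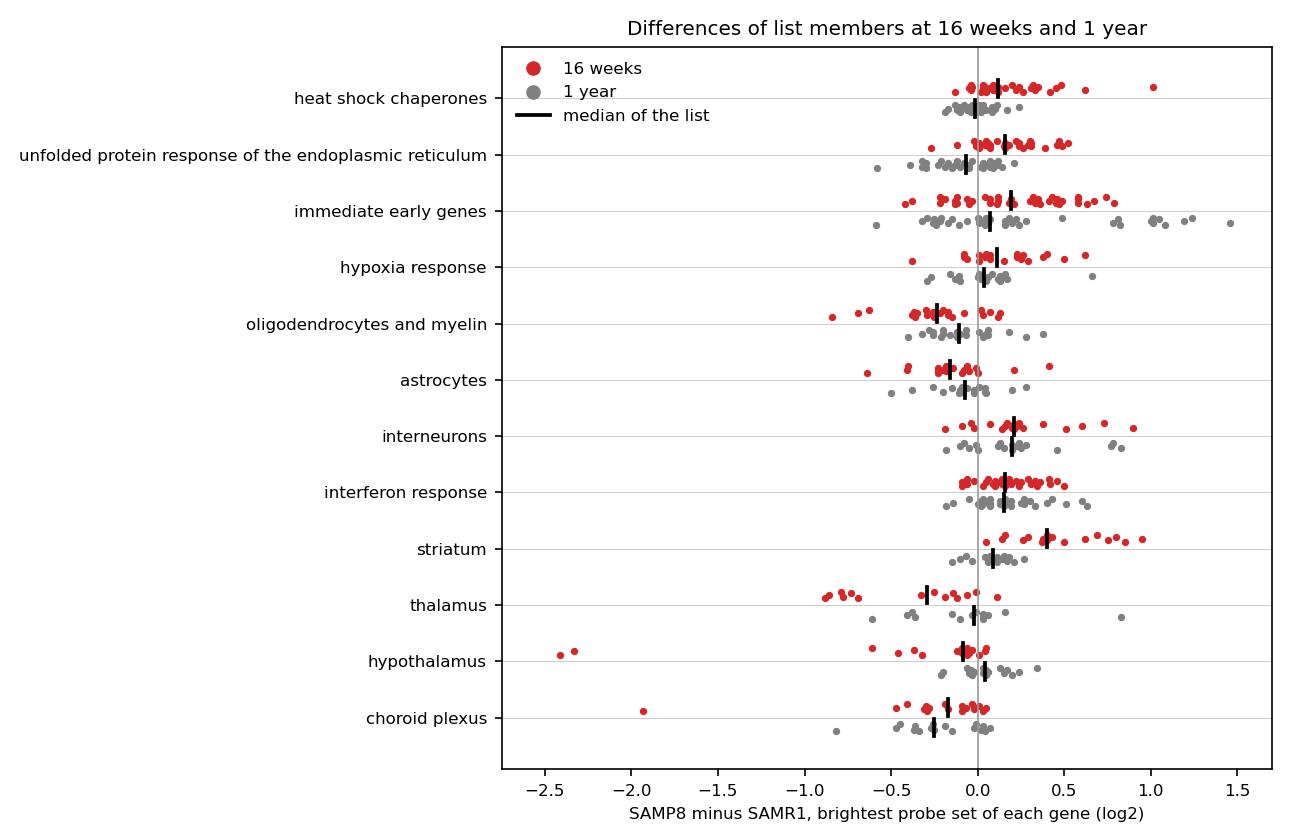
SAMP8 minus SAMR1 differences (log2) of the brightest probe set of each gene in 12 lists, at 16 weeks (red) and 1 year (grey), with the median of each list as a black bar. At 16 weeks the medians of the heat shock (0.12) and unfolded protein (0.16) lists lie above 0 and that of myelin (-0.23) below, beside the striatum (0.40) and thalamus (-0.29) marker lists.

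Other cell types had fewer called genes than the myelin list. The astrocyte list was also mostly below 0: 2 of 18 genes lay above 0, against 49.9% of all genes. Its median was -0.16 (-0.11 without SAMR1 replicate 1). In it 2 genes were called higher and 2 lower, against 1.16% and 0.764% of all genes. *Ntsr2*, a neurotensin receptor of astrocytes, read 8.23 and 8.16 in SAMP8 against 8.74 and 8.92 (-0.64 ± 0.07, adjusted p = 0.00639). *Fgfr3* was lower (8.30 and 8.39 against 8.74 on either array, -0.40 ± 0.07, adjusted p = 0.0352), *Gli3* was higher in its chromosome 13 run, and *Gja1*, the gap junction protein connexin 43, was higher on 1 probe set (0.65 ± 0.12, adjusted p = 0.0474) but at -0.18 on its brightest. *Ntsr2* was lost only without SAMP8 replicate 2 (-0.60, adjusted p = 0.061), while the other 3 were lost without 7 or 8 of the arrays (largest adjusted p = 0.211). Neither the 18 microglia genes (median 0.01) nor the 15 genes of meninges and fibroblasts (median -0.04) held a call. *Rgs5*, a regulator of G protein signalling in pericytes, was called on 1 of 4 probe sets (5.51 and 5.70 against 4.56 and 4.48, 1.09 ± 0.10, adjusted p = 0.00182), and its brightest probe set was at 0.00. It was called again at 1 year and lies in a run of called genes on chromosome 1 with *Hsd17b7*.

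Among neurons, the clearest single gene was *Vip*, the peptide of a class of interneurons that inhibits other interneurons. Its signal was 8.62 and 8.69 in SAMP8 and 7.82 and 7.69 in SAMR1, a difference of 0.90 ± 0.08 (1.87-fold, adjusted p = 0.00113). The call held without each array in turn, at 0.84 to 0.97. At 1 year the signals were 7.98 and 8.07 against 7.88 and 7.77 (0.20, adjusted p = 0.546), and the change of -0.70 had an adjusted p of 0.185. None of the other 18 interneuron genes was called: *Crh* stood at 0.73 ± 0.16 (adjusted p = 0.0917), *Reln* at 0.38 ± 0.10 (0.144), *Npy* at 0.51 ± 0.16 (0.20) and *Cck* at 0.26 ± 0.07 (0.145). The list's median was 0.21, and 0.07 without SAMR1 replicate 1. Over all genes 1.16% were called higher and 0.764% lower. In the excitatory neuron list *Lamp5* was higher (9.66 and 9.71 against 9.11 and 9.33, 0.47 ± 0.08, adjusted p = 0.035) and *Camk2a* lower on 1 of 5 probe sets (-0.55 ± 0.10, adjusted p = 0.0404; 0.09 on the brightest). Both calls were lost without 7 of the 8 arrays (largest adjusted p = 0.198, without SAMP8 replicate 2).

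Most genes of the synapse lists were not called. Over all genes 1.16% were called higher and 0.764% lower. Of 34 presynaptic genes 2 were higher: *Erc1*, a scaffold of the active zone, read 5.64 and 5.27 against 4.57 on either SAMR1 array (0.89 ± 0.11, adjusted p = 0.00737), and *Syt1*, the calcium sensor of vesicle release, read 8.45 and 8.57 against 8.03 and 8.08 (0.46 ± 0.07, adjusted p = 0.0167). *Erc1* was called without each array in turn and again at 1 year. *Syt1* was lost without SAMR1 replicate 1 (adjusted p = 0.0682) or SAMP8 replicate 2 (0.0936). Among 30 glutamate receptor genes *Neto1*, an auxiliary subunit of kainate receptors, was 0.49 ± 0.08 higher (7.40 and 7.53 against 6.91 and 7.04, adjusted p = 0.0346). Among 29 postsynaptic genes *Ntrk2*, the receptor of BDNF, was lower on 1 of 8 probe sets (-0.37 ± 0.06, adjusted p = 0.0288) and at 0.23 on its brightest. These calls were lost without 7 and 8 of the arrays (largest adjusted p 0.179 and 0.132). *Homer1*, described above with the immediate early genes, was the other postsynaptic gene called, and it was higher. No gene of 20 for GABA receptors and transporters was called, and the list's median was 0.03. *Bdnf* itself read 6.49 and 6.30 against 6.01 and 5.97 (0.41 ± 0.09, adjusted p = 0.0986).

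In the list of protein phosphatase 1 and cAMP signalling 4 of 33 genes were called lower, against 0.764% of all genes. None was called higher, against 1.16%. In this list 22 lay above 0 and the median was 0.11. That median was 0.02 without SAMR1 replicate 1 and 0.16 without SAMR1 replicate 2, so it depended on these arrays. *Ppp1r1a*, the protein phosphatase inhibitor 1 that cAMP-dependent kinase activates, had a single probe set and read 6.20 and 6.05 against 7.71 and 7.86 (-1.66 ± 0.12, 3.16-fold, adjusted p = 0.000631). It was lower at 1 year too (-1.70, adjusted p = 0.000551). *Csnk1a1*, *Ppp1r14a* and *Camk2a* were the other 3. *Map2k5*, the kinase upstream of ERK5, was named by the study and was lower on 1 of 4 probe sets (3.44 and 3.55 against 4.79 and 4.83, -1.32 ± 0.09, adjusted p = 0.000463; brightest probe set 0.08). Among 29 genes of amyloid and tau metabolism, *Cdk5r1*, the p35 activator of Cdk5, was higher (6.27 and 6.19 against 5.59 and 5.77, 0.55 ± 0.08, adjusted p = 0.0151), and it was lost without SAMR1 replicate 1 (adjusted p = 0.0538) or either SAMP8 array of 16 weeks (0.0932 and 0.0727).

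Antigen presentation differed within its own gene family. Of 17 genes of complement and antigen presentation 2 were called higher and 1 lower, against 1.16% and 0.764% of all genes. *B2m*, the light chain shared by class I molecules, was higher on both of its probe sets, at 8.21 and 8.19 against 7.38 and 7.64 (0.69 ± 0.09, adjusted p = 0.0127) and by 0.53 ± 0.08. *H2-D1*, a class I heavy chain, was 0.93 ± 0.10 higher on 1 of 5 probe sets (3.85 and 3.77 against 2.96 and 2.81, adjusted p = 0.00487), and its others stood at -1.15 to 0.06. *H2-K1*, another heavy chain, was lower on 2 of 5 (3.93 and 3.91 against 5.16 and 5.70, -1.51 ± 0.15, adjusted p = 0.00242, and -0.50 ± 0.08). The 3 genes were called in the same direction at 1 year. Class I heavy chains are near-identical and vary between strains, so their probe sets can share signal. *B2m* was lost without SAMP8 replicate 1 (adjusted p = 0.0857) or 2 (0.0888), and *H2-D1* without SAMP8 replicate 1 (0.053). Among 31 interferon response genes none was called, although 26 lay above 0 and the median was 0.16 (0.14 to 0.20 without any 1 array). *Irf9* had the smallest adjusted p, 0.0619, at 0.41 ± 0.08, and *Gbp3* stood at 0.50 ± 0.13 (0.137). Of 36 cytokines, chemokines and receptors *Ccl28*, a mucosal chemokine, was higher (4.84 and 4.67 against 4.29 and 4.01, 0.61 ± 0.10, adjusted p = 0.0348) and was called at 1 year too, but was lost without 7 of the 8 arrays (largest adjusted p = 0.141, without SAMP8 replicate 1).

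In the metabolic lists few genes were called, where 1.16% of all genes were called higher and 0.764% lower. Of 23 genes of cholesterol and steroid synthesis 1 was called higher and 1 lower. In this list 16 genes lay above 0, against 49.9% of all genes. Its median was 0.14 (0.08 without SAMR1 replicate 2). *Hsd17b7*, an enzyme of cholesterol synthesis, was higher on 2 of 4 probe sets (6.21 and 6.25 against 5.64 and 5.41, 0.71 ± 0.08, adjusted p = 0.00627), and *Dhcr7*, the last enzyme of that pathway, was lower (6.17 and 6.20 against 6.67 and 6.62, -0.46 ± 0.08, adjusted p = 0.0313). *Hsd17b7* was called at 1 year, where *Dhcr7* stood at -0.01. The first was lost without SAMP8 replicate 2 (adjusted p = 0.0622) and the second without 5 arrays (largest adjusted p = 0.133, without SAMP8 replicate 2). *Ugcg*, which makes glucosylceramide, was 0.60 ± 0.11 higher (5.22 and 5.39 against 4.56 and 4.86, adjusted p = 0.0466). Of 36 genes of lysosomes and autophagy 4 were called higher and 1 lower. *Ctsb*, a lysosomal protease, was 0.48 ± 0.08 higher (adjusted p = 0.0361) and *Atp6v1b2*, a proton pump subunit, 0.33 ± 0.06 higher (adjusted p = 0.0401). *Vps41* and *Vps52* were higher too, though *Vps41* stood at 0.07 on its brightest probe set. *Vcp* was lower on the dimmer of its 2 probe sets. *Ugcg*, *Ctsb* and *Atp6v1b2* were lost without 7 or 8 of the arrays (largest adjusted p = 0.222, without SAMP8 replicate 2). No gene of 38 for oxidative phosphorylation was called and the median was 0.01. Of 31 cytosolic ribosomal proteins *Rps6* was lower (5.25 and 5.46 against 5.77 and 6.01, -0.54 ± 0.10, adjusted p = 0.0415), lost without 7 of the arrays (largest adjusted p = 0.145), 4 of the genes lay above 0 and the median was -0.07.

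Of 46 measured genes that the study names for this comparison, 12 were called higher and 14 lower, and 14 of these 26 were called in the same direction at 1 year. The study picked these genes on the same arrays, so the count is not independent of them. Members not yet described were *Nhlrc1*, a ubiquitin ligase that limits glycogen build-up (6.44 and 6.43 against 5.75 and 5.59, 0.77 ± 0.11, adjusted p = 0.0169), and *Pcolce2*, an enhancer of collagen processing (3.81 and 3.68 against 4.88 and 4.45, -0.92 ± 0.13, adjusted p = 0.0129). Both were lost without SAMP8 replicate 1 (adjusted p = 0.101 and 0.0742) or SAMP8 replicate 2 (0.109 for each).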

How the data were processed

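Cortical RNA of male mice (8 samples, 2 for each strain and age) had been hybridised to MG-430 PM array strips. The deposited log2 signals were made by the authors with RMA (background correction, quantile normalization and median polish over the arrays) and exported with 2 decimals; the second deposited table held the same log2 values. The genome build of the array annotation is not given in the sources used here, and the sources name different labelling kits. Further deposited tables hold the authors' own group means, fold changes and p-values, and were not used. Array number, not read depth, limits the precision.

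Of 45077 probe sets 40 controls were left out. A limma model (3.58.1, R 4.3.3) with 4 group means over all 8 arrays gave each difference, with 4 residual and 4.52 prior degrees of freedom and Benjamini-Hochberg adjustment over 45037 probe sets. The script was tested on simulated data. Symbols came from the deposited table, and 1 called probe set with a date as symbol was not named. Genes were placed by symbol on the RefSeq gene table (18409 placed on a chromosome). The text names the 15 largest increases and 15 largest decreases among called probe sets with arrays that do not overlap and 1 symbol (smallest p for each gene), up to 5 members of each gene list with called members first, the called genes the study names, probe sets called between the ages, and runs of neighbouring called genes. Further called members and probe sets without 1 symbol were named after their values were seen. A list's median uses the brightest probe set of each gene (highest mean over 8 arrays). The members and lists were chosen with earlier results of these data known. Alternatives were the 4 arrays of 16 weeks alone, a replicate block, each array left out, median centring, quantile normalization, a filter on dim probe sets (highest group mean under 5), other variance models, array weights, the brightest probe set, and the methods' test and threshold. The replicate numbers were taken as names only: deviations of same-numbered arrays correlated at 0.196, -0.022, 0.057 and -0.086 in the 4 pairs of groups. Figures were drawn with matplotlib 3.10.9. A few genes that the naming rule would include are not reported here.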

Additional observations from a re-analysis of the deposited data

Results flagged for a closer look

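The probe set 1428834_PM_at, which has no gene symbol, was the single one whose strain difference changed between the ages in a direct test. It stood 0.49 ± 0.07 higher in SAMP8 at 16 weeks (adjusted p = 0.0127, limma) and at -0.68 at 1 year (adjusted p = 0.00267), a change of -1.17 (adjusted p = 0.04).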

How the results depend on the processing

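The 554 calls (319 higher, 235 lower) became 120 (67 and 53) with the 4 arrays of 16 weeks alone, where fewer arrays estimate the spread, and 274 (154 and 120) with array weights. Leaving out an array gave 172 to 1128 calls, 95 to 624 higher and 77 to 504 lower. At the threshold of the study (fold above 1.1 with p under 0.05, not adjusted) the limma fit took in 6286 (3146 and 3140). The methods' test on 4 arrays gave 2252 (1157 and 1095) at that threshold, and 0, with 0 higher and 0 lower, after Benjamini-Hochberg adjustment, with 3199 at an unadjusted p under 0.05. Median centring, quantile normalization, the filter on dim probe sets, an intensity trend and robust variance gave 487 to 613. The test between the ages called 9 probe sets with an intensity trend and 0 to 52 with an array left out. Calls in the same direction at both ages numbered 89 to 232 with an array left out.

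With the replicate number as a block 552 probe sets were called (312 higher, 240 lower), of which 478 were among the 554, and 0 between the ages; 21 of 153 named probe sets lost their call. The 4 arrays alone kept the call of 50 of the 153, and centring kept 150.

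Where each gene was read from its brightest probe set, the sign turned for *Nrip1* (-0.06), *Pigo* (-0.08), *Rapgef5* (-0.09), *Csnk1a1* (0.30), *Zc2hc1a* (0.04), *Papola* (0.20), *Klf12* (0.24), *Gng12* (0.12), *Adgra1* (0.04), *Camk2a* (0.09), *Gja1* (-0.18), *Ntrk2* (0.23), *Map2k5* (0.08), *Pank3* (0.13), *9330159F19Rik* (-0.03), *C2cd5* (-0.06) and *Hecw1* (-0.64). For these and the other moved values the cause was not tested.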

Other observations

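*Serpinb8*, a protease inhibitor, joined *Xbp1* and *Hspa5* as a gene called in opposite directions at the 2 ages. It read 3.69 and 3.82 in SAMP8 against 3.39 and 3.37 in SAMR1 at 16 weeks (0.38 ± 0.07, adjusted p = 0.0356, limma) and 3.29 and 3.28 against 3.71 on either array at 1 year (-0.43, adjusted p = 0.0274). The change of -0.80 had an adjusted p of 0.145, and the 16 weeks call was lost without each of the 8 arrays in turn (largest adjusted p = 0.158, without SAMP8 replicate 2 of 16 weeks).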
